A study of Mus musculus with 9 samples.

Results

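Epidermal ear sheets of mice given imiquimod (IMQ) together with the herbal decoction Xiao-Yin-Fang (XYF) were compared with those of untreated control mice, to which Vaseline (VAS) and water were given. The comparison covered 18389 of the 52550 genes in the table, taken by a fixed rule of at least 10 counts in at least 3 of the 6 libraries. All mice were wild type C57BL/6 animals labelled as 8 weeks old, and the study's methods describe them as male. The IMQ + XYF group had IMQ cream on the skin for 5 days and XYF at 23.3 mg/g by gavage for 10 days. The VAS + H2O group had Vaseline for the same 5 days and distilled water for the same 10 days. A further group, IMQ + H2O, had IMQ cream and water, and is used here only for values set beside those of the comparison. Each group had 3 libraries. The 2 groups compared differed in both the cream and the decoction, so the parts of IMQ and of XYF in any difference between them cannot be told apart. The methods state that RNA came from the ear sheets of a pair of mice without saying whether that holds per library, so p-values measure the spread between libraries, which may be partly technical.

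IMQ is an agonist of Toll-like receptor 7, a sensor of single-stranded RNA, and its repeated application to mouse skin is a widely used model of psoriasis. In this model, IL-23 leads gamma-delta T cells and other lymphocytes to release IL-17 and IL-22, to which keratinocytes respond with chemokines that draw neutrophils, with antimicrobial proteins and with faster division and altered cornification. Keratins 6, 16 and 17, small proline-rich proteins, stefins and S100 alarmins are known products of keratinocytes in this state.

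The 6 libraries held between 31034401 and 64771160 counts. The 3 highest of 9 keratinocyte markers by level (Krt10, Krt5 and Krt14) were abundant in every library, and the summed level of the keratinocyte list was 42600 to 54600 CPM (counts relative to the effective library size) in VAS + H2O and 57700 to 62500 CPM in IMQ + XYF, so the defining markers of the labelled tissue were present. Other tissue was present in varying amount. In the VAS + H2O group, replicate 2 stood apart, with skeletal muscle markers at 334 CPM against 8.2 and 10.1 CPM in replicates 1 and 3, cartilage markers at 780 CPM against 369 and 357 CPM, and fibroblast markers at 1380 CPM against 446 and 545 CPM. In IMQ + XYF, muscle markers were at 22.4, 94 and 8.95 CPM, cartilage markers at 354, 224 and 222 CPM and fibroblast markers at 814, 1100 and 648 CPM. Because these are bulk samples, fewer cells of a type and less RNA per cell cannot be told apart.

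Compared with VAS + H2O, 1366 genes were differentially expressed (DEGs), that is, their adjusted p did not exceed 0.05 and their log2 fold change was 1 or more in either direction. They made up 7.43% of the genes tested. In IMQ + XYF, 823 genes (4.48%) were higher and 543 (2.95%) were lower. The higher genes differed by more, with a median log2 fold change of 1.53 and 268 genes at 2 or above, while the lower genes had a median of -1.28 and 69 genes at -2 or below. The median over all genes tested was -0.04. The 3 libraries of one group lay entirely above those of the other for 24.7% of all tested genes in the direction of IMQ + XYF and for 22.1% in the opposite direction. Of the DEGs, 819 of the 823 higher and all 543 lower genes had groups without overlap. Without VAS + H2O replicate 2, 1119 genes were DEGs, 728 higher and 391 lower, and these held 981 of the 1366.

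**Figure D1:**
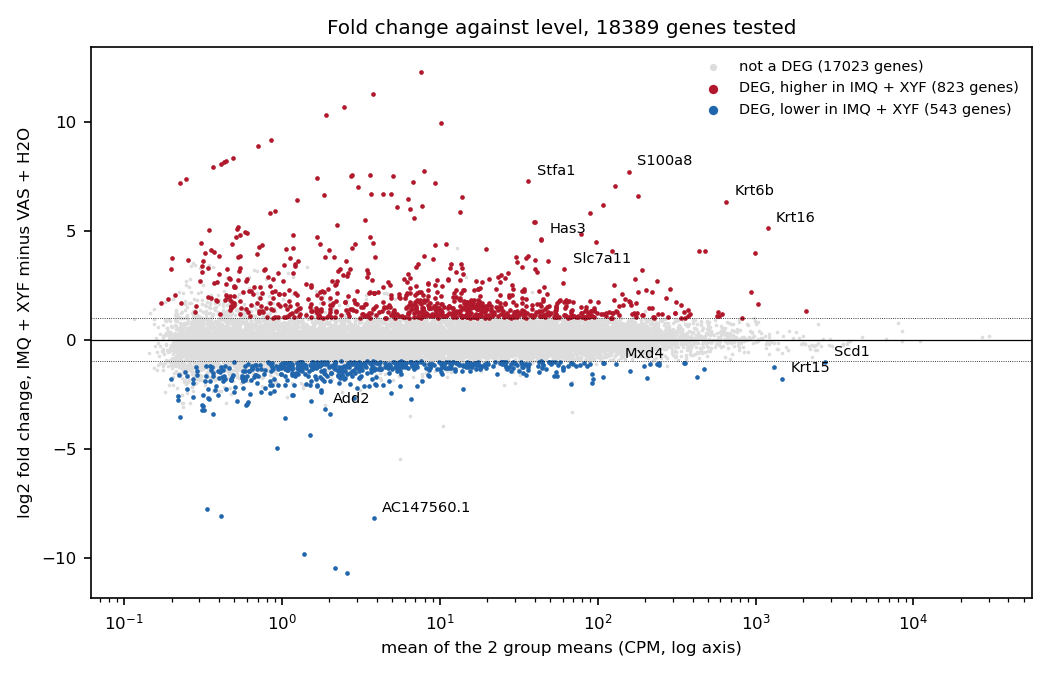
Log2 fold change of IMQ + XYF against VAS + H2O (vertical axis) for each of the 18389 genes tested, against the mean of the 2 group means in CPM (horizontal log axis), with the 823 higher DEGs in red, the 543 lower DEGs in blue, other genes in grey and dotted lines at a log2 fold change of 1 and -1. The red points reach further from 0 than the blue ones at most levels, and 13 higher and 5 lower DEGs had no count in one group, so that their fitted values are not measured folds.

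Among the 10 higher DEGs with the smallest p were a keratin, transport and metabolic genes and genes of proteases and their inhibitors. Krt16, which encodes a keratin induced in wounded and psoriatic epidermis (chr11:100246091-100248902, GRCm38), was at 56.8, 61.6 and 83.9 CPM in the VAS + H2O libraries and at 2540, 1970 and 2460 CPM in the IMQ + XYF libraries. All 3 treated libraries were thus far above the control libraries, and Krt16 rose by a log2 fold change of 5.11 ± 0.20 (SE, n = 3 per group, adjusted p = 0.000108). Slc7a11, the cystine importer that feeds glutathione synthesis, had the lowest p-value of all genes, with 11.1, 11.7 and 12.7 CPM in VAS + H2O and 107, 110 and 117 CPM in IMQ + XYF (log2 fold change 3.23 ± 0.08, adjusted p = 5.86e-05). Has3, a hyaluronan synthase, went from 3.02, 3.3 and 4.04 CPM to 86.2, 71.3 and 94.2 CPM (4.60 ± 0.16, adjusted p = 8.81e-05). The purine enzyme Gda rose by 2.97 ± 0.09, the aldehyde oxidase Aox4 by 2.19 ± 0.08 and the membrane protein gene Stom by 2.30 ± 0.10. The remaining genes of the 10 with the smallest p were the protease gene Klk6, the protease inhibitor genes Stfa1 and Stfa3 and the cornified envelope gene Sprr2d, which are described with their families.

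The 10 lower DEGs with the smallest p came from varied functions. Rab11fip4, an effector of the vesicle transport protein Rab11, was at 118, 122 and 119 CPM in VAS + H2O and at 51.9, 52.8 and 51 CPM in IMQ + XYF, and fell by 1.20 ± 0.06 on the log2 scale (adjusted p = 0.000145). Mxd4, which encodes a partner of MAX that opposes MYC, fell from 188, 175 and 174 CPM to 86.9, 83.4 and 75 CPM. Camkk1, a calcium-dependent kinase gene, fell by 1.16 ± 0.07, the transcription factor gene Tfap2b by 1.09 ± 0.07, the Argonaute gene Ago4 by 1.31 ± 0.09, the elongation factor gene Ell3 by 1.46 ± 0.10 and Gnptab, which is needed for the mannose 6-phosphate tag of lysosomal enzymes, by 1.12 ± 0.08. Slc6a2, the noradrenaline transporter gene, fell by 1.61 ± 0.12, and Add2, the gene of the membrane skeleton protein beta-adducin, by 3.20 ± 0.23, from 3.89, 3.15 and 3.07 CPM to 0.377, 0.401 and 0.313 CPM. In each of these 9 genes the 2 groups did not overlap, which the rule for choosing them required. The last of the 10 was AC147560.1, a gene without a name, at 7.61, 6.73 and 8.51 CPM in VAS + H2O and at 0.0157, 0.0308 and 0.0285 CPM in IMQ + XYF. It met the count rule through the VAS + H2O libraries alone, so it had to differ.

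**Figure D2:**
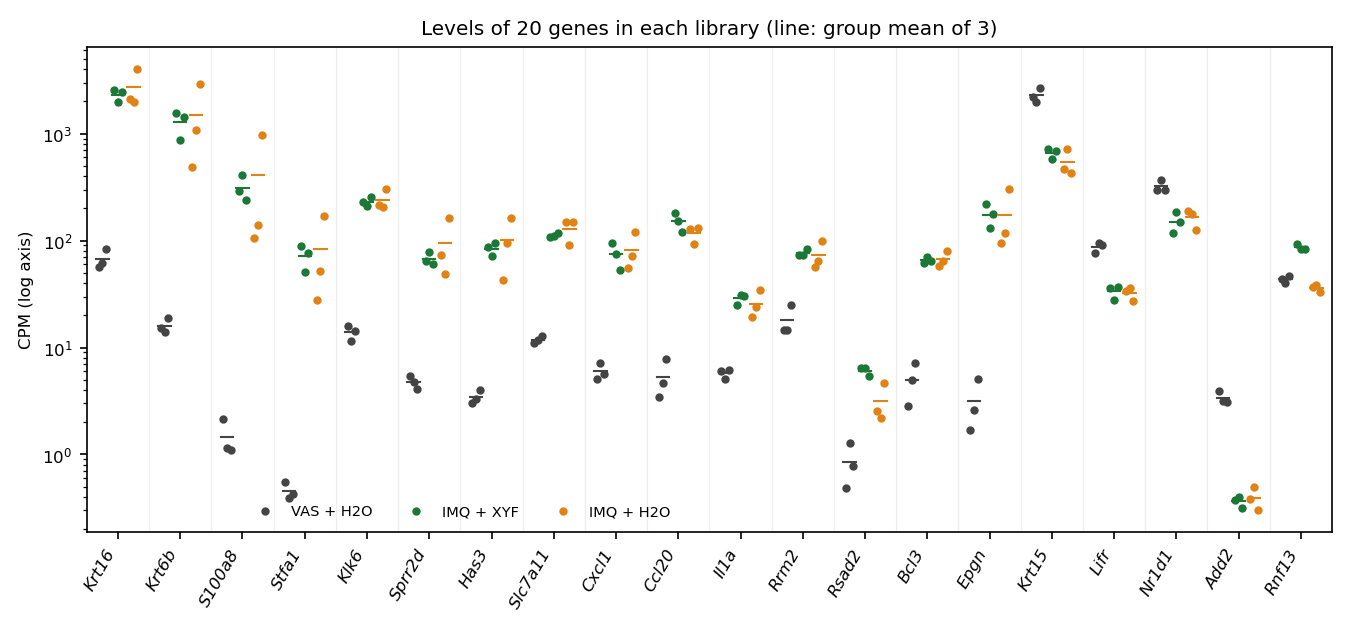
Level in CPM (vertical log axis) of 20 named genes in each of the 9 libraries, with a dot per library and a line at the mean of the 3 libraries of a group, for VAS + H2O (grey), IMQ + XYF (green) and IMQ + H2O (orange). Krt16, for example, sits at 56.8 to 83.9 CPM in VAS + H2O and at 1970 to 2540 CPM in IMQ + XYF. In all 20 genes shown the VAS + H2O libraries do not overlap those of IMQ + XYF, which follows largely from showing DEGs.

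The response was then read through 22 gene lists. In 19 of them the share of DEGs was above the 7.43% of all genes. The lists were chosen with earlier results of these data known, so this count is a description and not a test. In 12 lists DEGs were only higher in IMQ + XYF, in 4 lists only lower (cholesterol and fatty acid synthesis, the circadian clock, Notch and Wnt pathways, and collagen chains), and in 6 lists both directions occurred. Of the 4, the cholesterol list and the Notch and Wnt list held 1 DEG each, shares of 3.45% and 3.33%, below that of all genes. Among the 12, barrier lipid synthesis and MHC class II presentation also held 1 each.

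**Figure D3:**
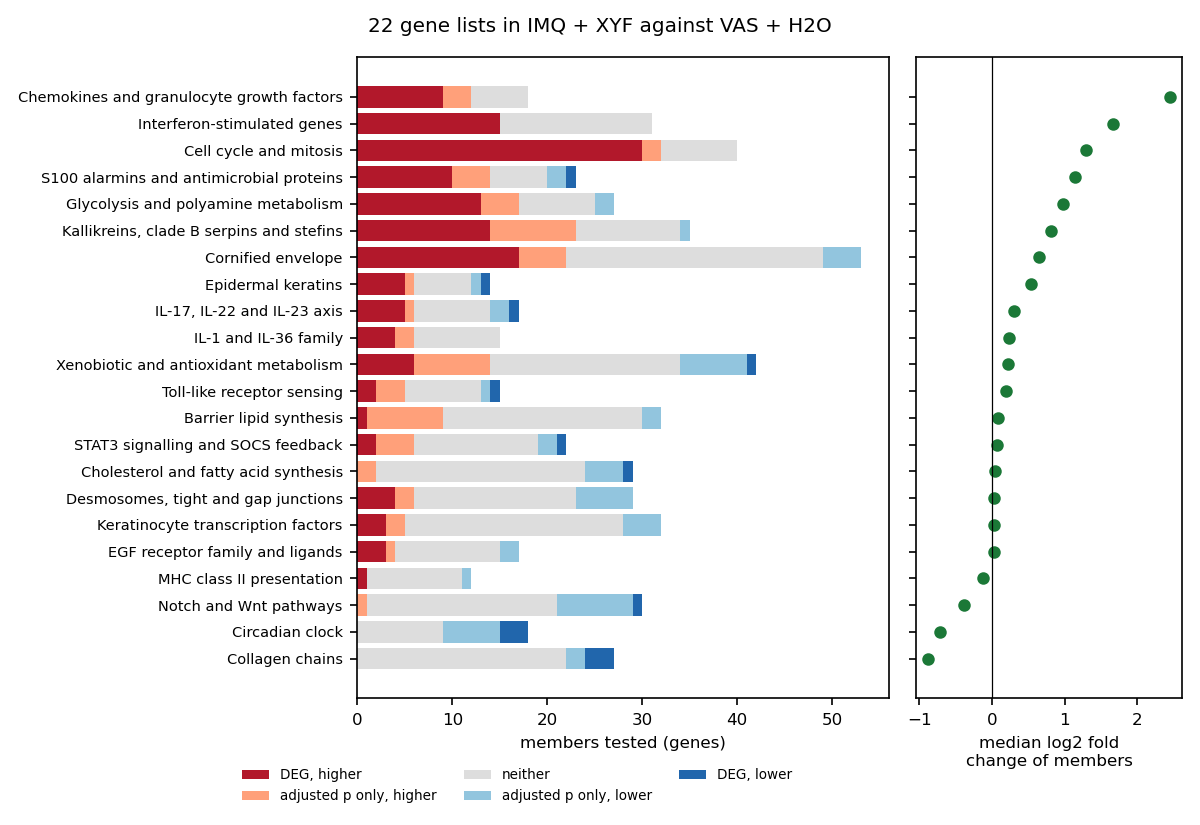
For each of 22 gene lists, the number of members tested (left, stacked bars) that were DEGs higher or lower in IMQ + XYF, passed the adjusted p without reaching the fold change, or passed neither, and the median log2 fold change of the members (right). The median with all libraries is 2.45 for chemokines and granulocyte growth factors (1.07 without IMQ + XYF replicate 1) and -0.88 for collagen chains (-0.17 without VAS + H2O replicate 2), so these 2 lists do not keep the outermost places without those libraries.

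At the level of sensing, the target of IMQ was hardly measurable in these sheets. Tlr7 had 0, 0.182 and 0.086 CPM in the VAS + H2O libraries and no count in any IMQ + XYF library, where 3 counts correspond to 0.0471 to 0.0925 CPM, so it was not tested. Tlr5, the flagellin receptor, fell from 12.8, 13 and 12.5 CPM to 3.9, 4.99 and 3.45 CPM (log2 fold change -1.63 ± 0.17, adjusted p = 0.00142). Among 15 Toll-like receptor sensing genes tested of 20, 2 were higher (Tlr2 and Cd14, the LPS co-receptor, named after their values were seen) and only Tlr5 was lower. The share of DEGs was 20%, against 7.43% of all genes, and the median log2 fold change was 0.19. The count of 2 was 3 without IMQ + XYF replicate 3 and 1 with any other single library left out. Cd14 was uneven within IMQ + XYF, at 31.7, 2.28 and 10.9 CPM. The adaptor gene Myd88, with a log2 fold change of 0.94 ± 0.12, passed the adjusted p (0.00293) but not the fold change, which it reached without VAS + H2O replicate 3 or IMQ + XYF replicate 3.

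Of the IL-1 and IL-36 family, 4 of 15 members tested were higher and none lower. Il1a, an alarm cytokine stored in keratinocytes, was at 6.02, 5.09 and 6.13 CPM in VAS + H2O and at 25.2, 31.3 and 30.4 CPM in IMQ + XYF (log2 fold change 2.33 ± 0.13, adjusted p = 0.000298). The IL-36 genes Il1f6 (IL-36 alpha) and Il1f9 (IL-36 gamma), whose products amplify psoriatic inflammation, rose by 1.74 ± 0.19 and 1.07 ± 0.10. Il1b had a larger fold change of 3.79 but an SE of 0.83, since the 3 IMQ + XYF libraries ranged from 11.8 to 119 CPM. The call of Il1b was lost without VAS + H2O replicate 1 or 3, and that of Il1f9, which is near the fold cutoff, without VAS + H2O replicate 2 or IMQ + XYF replicate 2.

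The lead cytokines of the IL-17 axis were hardly measurable in these sheets. Il17a and Il22 had no count in any of the 9 libraries, and Il17f had 0.0634 CPM in a single VAS + H2O library, so none of them was tested. Il24, of the IL-20 subfamily of cytokines that act on keratinocytes (chr1:130882074-130887454), had no count in VAS + H2O and 20.7, 5.09 and 19.5 CPM in IMQ + XYF, at least 189-fold higher when the control group is set to a floor of 3 counts per library. Its neighbour Il19 was at 0, 0 and 0.086 CPM in VAS + H2O and at 3.68, 4.81 and 8.12 CPM in IMQ + XYF. Both genes met the count rule through the IMQ + XYF libraries alone, so they had to differ, and both count among the higher members of this list. The receptor chain gene Il20ra fell from 50.8, 74 and 81.5 CPM to 32.7, 35.2 and 30 CPM (log2 fold change -1.07 ± 0.18, adjusted p = 0.00621), and its call was lost without VAS + H2O replicate 3 (-0.92). The second chain, Il20rb, had a log2 fold change of -0.87 ± 0.14 and passed the adjusted p (0.00563) without reaching the fold cutoff. Of 17 members tested of 21, 5 were higher and 1 lower, a median of 0.30, which was 0.15 without IMQ + XYF replicate 1, -0.06 without IMQ + XYF replicate 2 and -0.01 without IMQ + XYF replicate 3. The count of higher members was 1 without any one of the IMQ + XYF replicates 1, 2 and 3, and also 1 when 10 counts were asked of every library.

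Of the chemokines and granulocyte growth factors, 9 of 18 members tested were higher and none lower, with a median of 2.45. The median was 1.07 without IMQ + XYF replicate 1, and 1.01 when 10 counts were asked of every library. The other 8 genes of the 26 were too low to be tested. Ccl20, which draws CCR6-bearing lymphocytes, was at 3.47, 4.67 and 7.85 CPM in VAS + H2O and at 183, 153 and 121 CPM in IMQ + XYF (log2 fold change 4.85 ± 0.33, adjusted p = 0.00059). The neutrophil attractant Cxcl1 was at 5.07, 7.21 and 5.68 CPM against 94.4, 75.5 and 53.4 CPM (3.64 ± 0.25). Ccl2, a monocyte attractant, was at 0.148, 0.515 and 0.143 CPM against 8.39, 6.01 and 6.44 CPM, and the dendritic cell and macrophage product Ccl22 rose by 2.13 ± 0.24. Cxcl3 was at 0, 0 and 0.0573 CPM in VAS + H2O and varied widely in IMQ + XYF, at 40.3, 3.76 and 16.5 CPM. It met the count rule through the IMQ + XYF libraries alone, so it had to differ. The promoter of Cxcl1 is shown because this gene rose with both of its tested neighbours in the CXC chemokine cluster of chromosome 5, and kappaB sites are known elements of CXC chemokine promoters. It covers the 200 bases before the start of the gene (GRCm38.p6, chr5:90891045-90891244, plus strand, RefSeq), with capitals marking a match to the kappaB letters GGGANTTTC whose first base lies 71 bases before the start.
Cxcl1: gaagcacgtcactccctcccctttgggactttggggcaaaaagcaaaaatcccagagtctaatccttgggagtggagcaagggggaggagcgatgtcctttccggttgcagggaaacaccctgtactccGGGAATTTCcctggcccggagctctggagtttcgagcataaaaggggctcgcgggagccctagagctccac
On either strand and in windows of 300 bases, 250 before and 50 after the start, these letters were found in 5 of the 15 chemokine promoters that could be matched (33.3%; Csf1, Cxcl1, Cxcl2, Cxcl3 and Cxcl9) and in 1.15% of the 27025 promoters of the table.

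Antimicrobial and alarmin genes rose in part, with 10 of 23 tested members higher, 1 lower and a median of 1.14, which was 0.65 without IMQ + XYF replicate 1. Without IMQ + XYF replicate 2 or VAS + H2O replicate 2, 2 members were lower. S100a8 was at 2.13, 1.15 and 1.09 CPM in VAS + H2O and at 290, 410 and 241 CPM in IMQ + XYF (log2 fold change 7.71 ± 0.35, adjusted p = 0.000145). Its partner in calprotectin, S100a9, was at 5.11, 2.76 and 3.1 CPM against 345, 445 and 284 CPM (6.59 ± 0.31). The elastase inhibitor Slpi rose by 4.60 ± 0.21 and the chitinase-like gene Chil1 by 3.19 ± 0.15. The one lower member was S100a3, a calcium-binding protein of the hair cuticle, which fell from 4.31, 4.82 and 5.19 CPM to 1.23, 1.73 and 1.4 CPM.

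S100a8 and S100a9 are made by both keratinocytes and neutrophils, and markers of neutrophils were higher in the same libraries. The summed level of the neutrophil list was 14.8 to 18.4 CPM in VAS + H2O and 728, 918 and 589 CPM in IMQ + XYF. Only 4 of its 10 genes could be tested, and S100a8 and S100a9 made up most of the sum. The others were Cxcr2, at 11, 10.6 and 12.6 CPM against 56.1, 60.9 and 54.3 CPM, and Csf3r, the receptor of granulocyte colony-stimulating factor, at 22.9, 1.33 and 6.1 CPM in IMQ + XYF and at most 0.0909 CPM in VAS + H2O. Csf3r met the count rule through the IMQ + XYF libraries alone, so it had to differ. Ly6g had 16, 0 and 3 counts in the IMQ + XYF libraries, and Elane none. The sum and Cxcr2 were thus highest in IMQ + XYF replicate 2, where Csf3r and Ly6g were lowest. Csf3r, Cd14, Il1b, Cxcl3, Ccl3 and Osm, grouped here after their values were seen, were all highest in IMQ + XYF replicate 1 and lowest in replicate 2. The part of neutrophils in these genes was not tested.

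Interferon-stimulated genes formed another inflammatory group, with 15 of 31 tested members higher, none lower and a median of 1.67. In 27 of the 31 the IMQ + XYF libraries lay above all VAS + H2O libraries, against 24.7% of all genes. Rsad2, which encodes the antiviral enzyme viperin, was at 0.486, 1.27 and 0.774 CPM in VAS + H2O and at 6.47, 6.44 and 5.38 CPM in IMQ + XYF (log2 fold change 2.87 ± 0.35, adjusted p = 0.00238). Ifi44 rose by 3.59 ± 0.60, Ifi35 by 1.38 ± 0.21 and Zbp1, a sensor of Z-form nucleic acids, by 3.19 ± 0.52. Control levels were uneven, and Zbp1 and Ifi35 were lowest in VAS + H2O replicate 2, at 0.182 and 10.9 CPM against 0.888 to 0.946 and 17.5 to 17.6 CPM in the other 2 control libraries. With that library left out the count stayed at 15 and the median was 1.26. The count was 6 without IMQ + XYF replicate 1, 7 without replicate 2 and 9 without replicate 3 or without VAS + H2O replicate 3. The promoters of Rsad2 and Ifi44 are shown because both genes had matches to the core of the interferon-stimulated response element, AANNGAAA on either strand, in capitals (200 bases before the start, GRCm38.p6, both on the minus strand, chr12:26456453-26456652 for Rsad2 and chr3:151749911-151750110 for Ifi44, RefSeq).
Rsad2: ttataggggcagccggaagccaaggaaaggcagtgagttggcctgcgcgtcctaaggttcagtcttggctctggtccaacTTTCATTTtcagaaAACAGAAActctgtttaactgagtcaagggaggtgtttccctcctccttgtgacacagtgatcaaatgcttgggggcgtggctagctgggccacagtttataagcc
Ifi44: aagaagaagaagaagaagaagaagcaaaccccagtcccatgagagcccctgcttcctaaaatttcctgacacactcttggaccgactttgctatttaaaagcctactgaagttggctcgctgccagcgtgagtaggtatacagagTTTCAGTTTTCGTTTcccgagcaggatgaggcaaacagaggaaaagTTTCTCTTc
The first bases of the 2 matches of Rsad2 lay 120 and 106 bases before the start, and the 3 matches of Ifi44 lay between 55 and 9 bases before it. The letters are common, in 24.2% of all promoters of the table, and no share is given for the list because only 22 of its 31 tested genes had a promoter in the table.

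Among epidermal keratins, 5 of 14 were higher and 1 lower (2 lower without VAS + H2O replicate 2). Krt6b and Krt6a, which pair with keratin 16, rose most along with Krt16. Krt6b was at 15.1, 13.9 and 18.9 CPM in VAS + H2O and at 1560, 877 and 1420 CPM in IMQ + XYF (log2 fold change 6.33 ± 0.28, adjusted p = 0.000145), and Krt6a at 132, 118 and 110 CPM against 2410, 1020 and 2170 CPM (3.96 ± 0.33). The 2 genes are close copies, so reads may be split between them. Krt15, a keratin of resting basal cells and the hair follicle bulge, was the lower member and fell from 2210, 1960 and 2680 CPM to 713, 582 and 684 CPM (-1.79 ± 0.14, adjusted p = 0.000798). The keratins of the bulk of the epidermis were far less changed, with log2 fold changes of 0.40 ± 0.15 for Krt5, 0.77 ± 0.13 for Krt14 and 0.14 ± 0.13 for Krt10, none of them DEGs.

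Cornified envelope genes divided by family. Of 53 tested members, 17 were higher and none lower, with a median of 0.65, which was 0.35 without VAS + H2O replicate 3 and 0.24 when 10 counts were asked of every library. Most belong to the epidermal differentiation complex, in which 75 genes between S100a1 and S100a10 (chr3:90511034-93564643) were tested and 23 were higher and 1 lower, 32% against 7.43% of all genes. Of the Sprr2 genes, small proline-rich proteins made under stress, 10 of 11 were higher, with log2 fold changes of 2.97 to 5.60 over the 11 genes. Sprr2d was at 5.43, 4.73 and 4.07 CPM in VAS + H2O and at 65, 78 and 60.8 CPM in IMQ + XYF (3.84 ± 0.15, adjusted p = 0.000108), and Sprr2g at 1.37, 1.3 and 1.12 CPM against 20, 13.9 and 16.4 CPM. Of the Lce3 genes, late cornified envelope genes tied to barrier repair, 4 of 6 were higher. The 14 Lce1 genes, by contrast, all had values below 0, from -1.0 to -0.08, with 1 past the adjusted p and none a DEG, and the grouping by family was made after the values were seen. Sprr2 and Lce1 genes are near-identical copies, so single members are uncertain and share reads. The transglutaminase genes Tgm1 and Tgm5, whose products join these proteins, had log2 fold changes of 0.91 ± 0.08 and 0.93 ± 0.08 and passed the adjusted p alone. Without IMQ + XYF replicate 2, which had the highest Lor and Flg of its group, 6 cornified envelope members were lower DEGs.
The Sprr2d promoter is shown because AP-1, a factor of keratinocyte differentiation and stress, is known to act at genes of this complex (200 bases before the start, GRCm38.p6, chr3:92338940-92339139, plus strand, RefSeq). Capitals mark a match to the AP-1 letters TGANTCA, 193 bases before the start.
Sprr2d: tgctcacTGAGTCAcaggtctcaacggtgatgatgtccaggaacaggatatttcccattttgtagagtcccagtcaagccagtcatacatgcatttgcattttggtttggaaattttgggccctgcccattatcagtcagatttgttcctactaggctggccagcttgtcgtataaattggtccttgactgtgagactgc
In windows of 300 bases these letters were found in 16 of 48 matched cornified envelope promoters (33.3%), among them those of Flg, Ivl and Lor, against 7.93% of all promoters of the table. Flg, Ivl and Lor were no DEGs, with log2 fold changes of -0.66, 0.90 and -0.37. The TATA box letters TATAAA were found in 19 of the 48 (39.6%) and in 14.2% of all. Copies of a family share sequence, so the promoters are not independent.

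**Figure D4:**
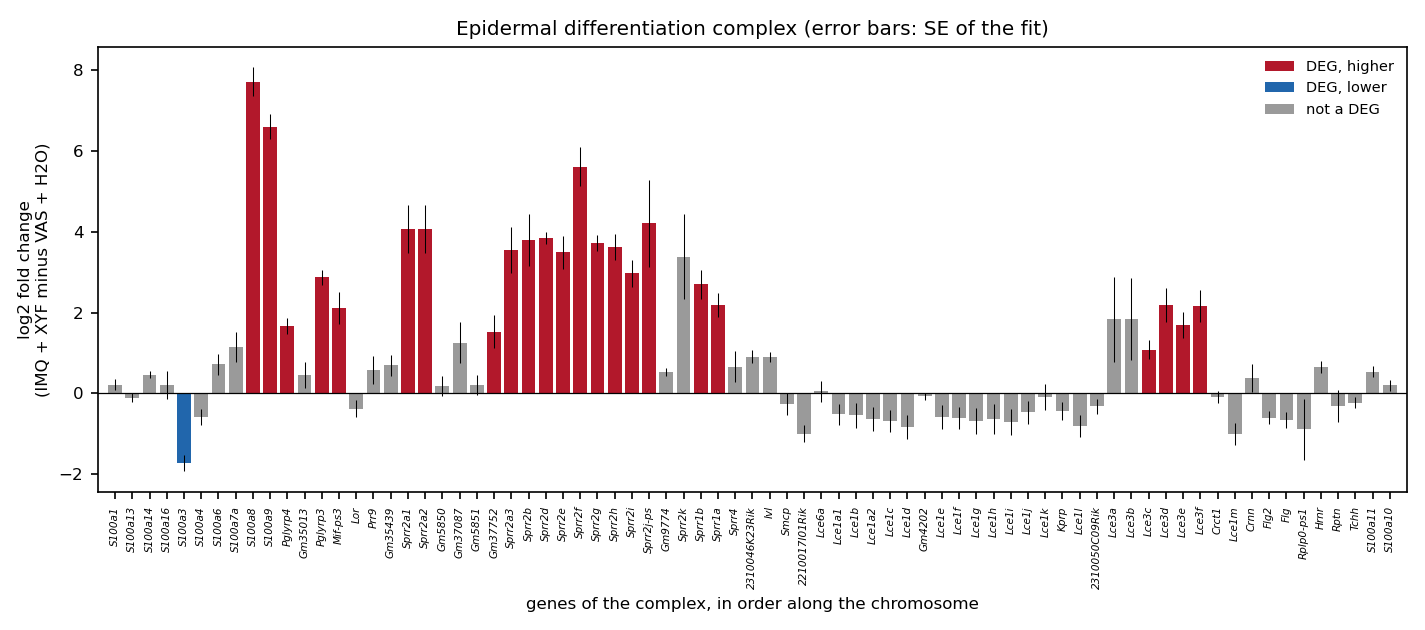
Log2 fold change of IMQ + XYF against VAS + H2O (vertical axis, error bars: SE of the fit) of the 75 tested genes of the epidermal differentiation complex, in their order along the chromosome (horizontal axis), with higher DEGs in red, lower DEGs in blue and other genes in grey. S100a8 and S100a9, the Sprr2 block and the Lce3 block stand above 0, while the Lce1 genes lie between -1.0 and -0.08.

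Proteases of the horny layer and their inhibitors showed 14 of 35 members higher and none lower, with a median of 0.81. The largest changes were in stefins, inhibitors of cysteine proteases. Stfa1 (chr16) was at 0.549, 0.394 and 0.43 CPM in VAS + H2O and at 88.6, 50.8 and 77 CPM in IMQ + XYF (log2 fold change 7.27 ± 0.29, adjusted p = 0.000108). Stfa3 rose by 5.39 ± 0.23 and BC100530 by 7.07 ± 0.35, and all 6 genes tested in the stefin A cluster were higher, although these genes are close copies. Klk6, a serine protease of the kallikrein cluster, in which 4 of 12 genes were higher, was at 16, 11.4 and 14.3 CPM against 230, 209 and 256 CPM (4.06 ± 0.15, adjusted p = 9.6e-05).

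Of 17 EGF family genes, 3 were higher and none lower, 17.6% against 7.43% of all genes. The median of this list was 0.02, and the 3 higher genes encode ligands. Epgn (epigen) was at 1.71, 2.61 and 5.1 CPM in VAS + H2O and at 218, 130 and 177 CPM in IMQ + XYF (log2 fold change 5.82 ± 0.43, adjusted p = 0.00071), Areg (amphiregulin) rose by 4.17 ± 0.55 and Nrg1 (neuregulin) by 3.49 ± 0.35. Lrig3, which restrains receptor signalling in this family, had a log2 fold change of -0.68 ± 0.11 and was no DEG. In the STAT3 list, 2 of 22 were higher and 1 lower, 13.6% against 7.43% of all genes, with a median of 0.08. The count of higher genes was 1 without IMQ + XYF replicate 1 or 2 and 3 without IMQ + XYF replicate 3 or VAS + H2O replicate 1 or 3. Bcl3, a nuclear cofactor of NF-kappaB, was at 2.81, 4.97 and 7.17 CPM against 61.9, 70.9 and 64.2 CPM (3.73 ± 0.32), while Lifr, the receptor of leukaemia inhibitory factor, fell from 75.8, 95.4 and 91.9 CPM to 35.8, 27.8 and 37 CPM (-1.39 ± 0.14). Stat3 itself had a log2 fold change of 0.75 ± 0.08 and passed the adjusted p alone (0.00138).

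Division genes had the highest share of DEGs, with 30 of 40 higher and none lower, 75% against 7.43% of all genes, and a median of 1.29. Rrm2, a subunit of ribonucleotide reductase, was at 14.5, 14.5 and 24.9 CPM in VAS + H2O and at 73.6, 73.6 and 84.2 CPM in IMQ + XYF (log2 fold change 2.10 ± 0.22, adjusted p = 0.00157). The S phase cyclin gene Ccne1 rose by 2.14 ± 0.28, the replicative helicase gene Mcm7 by 1.15 ± 0.13 and the polymerase clamp gene Pcna by 1.01 ± 0.12, whose call was lost without VAS + H2O replicate 1 or 2 or IMQ + XYF replicate 3. Mki67, the gene of the Ki-67 proliferation marker, was at 85.9, 211 and 251 CPM in VAS + H2O and at 349, 497 and 452 CPM in IMQ + XYF (1.25 ± 0.37, adjusted p = 0.0476), close to the threshold, and it was lost without any one of 5 of the 6 libraries. In 38 of the 40 genes the IMQ + XYF libraries lay above all VAS + H2O libraries, against 24.7% of all genes. The count of 30 was 13 to 34 when 1 library was left out, with 19 without VAS + H2O replicate 1, 15 without VAS + H2O replicate 2, 18 without IMQ + XYF replicate 2 and 13 without IMQ + XYF replicate 3. The E2F letters TTTNGCGC were found in 5 of 32 matched promoters of this list (15.6%; Cdk1, Mcm3, Mcm5, Mcm6 and Mcm7). They were in 1.38% of all promoters of the table and in 2.29% of those of the 11950 tested genes that could be matched.

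Metabolic genes were also higher in part. In the glycolysis and polyamine list, 13 of 27 were higher and none lower, with a median of 0.97. Pgk1 was at 72.7, 61.2 and 74.5 CPM in VAS + H2O and at 215, 202 and 193 CPM in IMQ + XYF (log2 fold change 1.55 ± 0.09, adjusted p = 0.000382). Hk2, the first enzyme of the pathway, rose by 1.33 ± 0.10, Eno1 by 1.16 ± 0.07 and Ldha, which makes lactate, by 1.16 ± 0.08. Of 42 xenobiotic and antioxidant genes, 16.7% were DEGs, against 7.43% of all genes. Of the 42, 6 were higher and 1 lower (2 lower without VAS + H2O replicate 1 or 2 or IMQ + XYF replicate 1). Beside Slc7a11 and Aox4 these included Nqo1, a quinone reductase, at 11.1, 9.36 and 11.5 CPM against 42.2, 40.4 and 50.5 CPM, and the glutathione transferase gene Gsta4, at 6.53, 7 and 11.9 CPM against 228, 123 and 213 CPM (4.47 ± 0.34). The lower member was the cytochrome P450 gene Cyp2g1 (-1.64 ± 0.26).

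Few lipid synthesis genes were DEGs. Of 32 genes for barrier lipids 1 was higher, and of 29 genes for cholesterol and fatty acids 1 was lower, shares of 3.12% and 3.45% that lie below the 7.43% of all genes. The ceramide synthase gene Cers3 had a log2 fold change of 0.94 ± 0.07 and passed the adjusted p (0.000637) just short of the fold cutoff. Scd1, a fatty acid desaturase that is abundant in sebaceous glands, fell from 3670, 4890 and 2650 CPM to 1780, 2020 and 1640 CPM (-1.04 ± 0.22, adjusted p = 0.0142), and the call was lost without VAS + H2O replicate 2 or IMQ + XYF replicate 3. Srebf1 and Scd2 had log2 fold changes of -0.77 ± 0.09 and -0.75 ± 0.08. The summed hair follicle and sebaceous gland markers, to which Scd1 belongs, were at 2720 to 4950 CPM against 1700 to 2060 CPM. Scd1 itself made up nearly all of this sum in every library, so the sum is no separate measure of these structures. Their part in the result was not tested.

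Cell junction genes and transcription factors held a few large changes in lists that were mostly flat. Of 29 junction genes, 4 were higher and none lower, 13.8% against 7.43% of all genes. They were the gap junction genes Gjb2 (log2 fold change 2.78 ± 0.27) and Gjb6 (1.76 ± 0.17) and the desmosomal cadherin genes Dsg3 (1.27 ± 0.11) and Dsc2 (1.53 ± 0.19). Gjb2, which encodes connexin 26, was at 40, 52.4 and 38.8 CPM in VAS + H2O and at 361, 192 and 350 CPM in IMQ + XYF. Of 32 keratinocyte transcription factors, 3 were higher and none lower, 9.38% against 7.43% of all genes, so the share was near that background. Without VAS + H2O replicate 1, 2 members were lower. The 3 higher genes encode epithelial ETS factors. Ehf was at 83, 80.6 and 83.9 CPM against 240, 301 and 265 CPM (1.70 ± 0.09, adjusted p = 0.000243), Elf3 rose by 2.20 ± 0.28 and Elf5 by 2.18 ± 0.24. Cebpb passed the adjusted p with a log2 fold change of 0.73 ± 0.07.

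In the circadian clock list 3 of 18 genes were lower, 16.7% against 7.43% of all genes. A further 6 were lower past the adjusted p alone, none was higher, and the median was -0.71. Nr1d1, a repressor of the clock also called Rev-erb alpha, was at 300, 371 and 299 CPM in VAS + H2O and at 118, 184 and 149 CPM in IMQ + XYF (log2 fold change -1.11 ± 0.17, adjusted p = 0.0052), a call lost without VAS + H2O replicate 2 or IMQ + XYF replicate 1. The count of 3 was 5 without VAS + H2O replicate 3 or IMQ + XYF replicate 3 and 2 without VAS + H2O replicate 2. Npas2 fell by 1.30 ± 0.23, while Tef and Nr1d2 had log2 fold changes of -0.78 ± 0.10 and -0.72 ± 0.09. Of 30 Notch and Wnt genes, 1 was lower (none without VAS + H2O replicate 1 or 2 or IMQ + XYF replicate 3). The share of DEGs in that list, 3.33%, was below the 7.43% of all genes, and its median was -0.38. Lgr6, a receptor of epidermal stem cells, had a log2 fold change of -0.69 ± 0.07.

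Of 12 MHC class II genes 1 was higher, a share of 8.33% near the 7.43% of all genes. It was the costimulatory ligand gene Cd80, at 0.317, 0.515 and 0.315 CPM against 2.81, 0.863 and 1.82 CPM (2.28 ± 0.49, adjusted p = 0.0155), and its call was lost without VAS + H2O replicate 1 and in 1 fit of all 9 libraries. H2-Aa was at 132, 99 and 114 CPM against 102, 87.5 and 88.2 CPM. Markers of Langerhans cells summed to 622 to 715 CPM in VAS + H2O and 614 to 645 CPM in IMQ + XYF. Markers of dendritic epidermal T cells, the resident gamma-delta T cells of mouse epidermis, summed to 82.4 to 95.7 CPM against 44.5 to 68.8 CPM. Trdc, the constant chain of the delta T cell receptor, was at 20, 22.2 and 17.5 CPM in VAS + H2O and at 14.6, 12.5 and 9.43 CPM in IMQ + XYF (-0.71 ± 0.18, adjusted p = 0.0275), without reaching the fold cutoff, and 1 of the 10 markers was a lower DEG (10%, and none without VAS + H2O replicate 1 or IMQ + XYF replicate 3). No tested marker of macrophages, alpha-beta T cells, mast cells, adipocytes, melanocytes, Schwann cells or skeletal muscle was a DEG. However, only 1 of 7 mast cell, 4 of 8 alpha-beta T cell, 5 of 8 adipocyte and 8 of 11 macrophage markers could be tested. Macrophage markers summed to 11.6 to 13.8 CPM in VAS + H2O and 14.5 to 34.4 CPM in IMQ + XYF, and DESeq2 called 2 of them higher.

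Dermal and cartilage genes varied with single libraries. Of 27 collagen chain genes 3 were lower, 11.1% against 7.43% of all genes. The median of the list was -0.88, and it was -0.17 without VAS + H2O replicate 2. Col8a1 was at 98.3, 274 and 127 CPM in VAS + H2O and at 69.9, 40.6 and 42.7 CPM in IMQ + XYF (log2 fold change -1.70 ± 0.42, adjusted p = 0.0243), and Col9a3 at 17.8, 42.2 and 23.6 CPM against 13, 8.91 and 12.2 CPM (-1.29 ± 0.33). The call of Col8a1 was lost without IMQ + XYF replicate 2 or 3, and that of Col9a3 without VAS + H2O replicate 2 or any one of the IMQ + XYF replicates 1, 2 and 3. The highest value of both was in VAS + H2O replicate 2, without which 1 collagen gene was lower. The count was 0 to 5 over the 6 libraries left out in turn, with 5 without VAS + H2O replicate 1, 1 without IMQ + XYF replicate 1 or 3 and 0 without IMQ + XYF replicate 2. The keratinocyte collagens Col7a1 and Col17a1, of the basement membrane and hemidesmosome, had log2 fold changes of -0.97 ± 0.09 and -0.49 ± 0.12 and passed the adjusted p alone. Postn (periostin), a matrix gene of the fibroblast list, rose from 126, 141 and 170 CPM to 309, 744 and 398 CPM (1.74 ± 0.32, adjusted p = 0.00943). The median of that list was -0.85 with all libraries and 0.45 without VAS + H2O replicate 2. The endothelial gene Vwf fell by 1.76 ± 0.36 from 4.54, 2.42 and 3.81 CPM to 1.51, 0.74 and 0.883 CPM, a call lost without IMQ + XYF replicate 3. It was the only DEG of 8 endothelial markers (12.5% against 7.43% of all genes), whose log2 fold changes ran from -1.76 to 0.53 with a median of -0.67. Their sum overlapped between the groups, at 11.6 to 15.7 CPM in VAS + H2O and 4.79 to 12.3 CPM in IMQ + XYF. Erythrocyte markers summed to 8.92, 15.8 and 45 CPM in VAS + H2O and to 8.06, 5.98 and 9 CPM in IMQ + XYF, with 1 of 5 tested genes lower (2 without VAS + H2O replicate 1, and none without VAS + H2O replicate 2 or 3 or IMQ + XYF replicate 2 or 3).

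**Figure D5:**
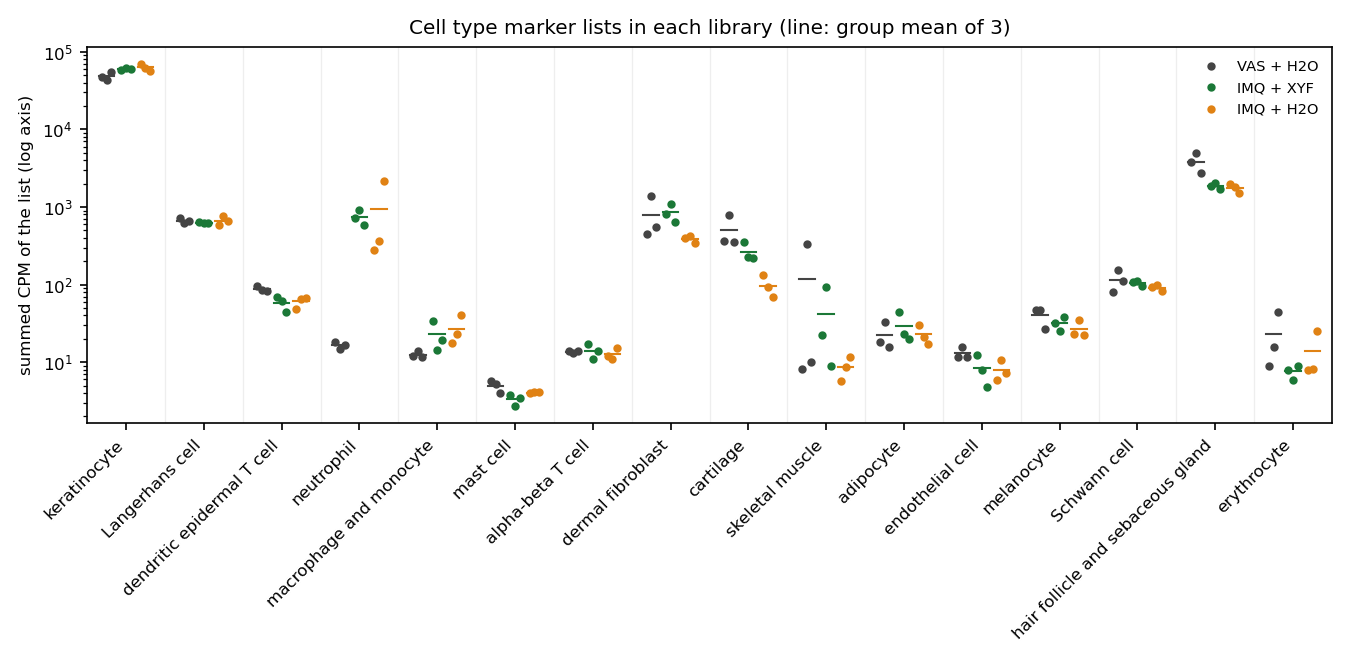
Summed CPM (vertical log axis) of 16 cell type marker lists in each of the 9 libraries, with a dot per library and a line at the mean of the 3 libraries of a group, for VAS + H2O (grey), IMQ + XYF (green) and IMQ + H2O (orange). Neutrophil markers are at 14.8 to 18.4 CPM in VAS + H2O and 589 to 918 CPM in IMQ + XYF, mostly from S100a8 and S100a9, which keratinocytes also make. In skeletal muscle markers, 1 VAS + H2O library lies apart at 334 CPM.

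IMQ without XYF was compared with the same VAS + H2O libraries, so the 2 comparisons are not independent, and their values are only set side by side. In IMQ + H2O against VAS + H2O, 1355 of 18152 genes were DEGs. Krt16 had a log2 fold change of 5.34 there and 5.11 in IMQ + XYF, S100a8 of 8.12 and 7.71, Stfa1 of 7.50 and 7.27, Ccl20 of 4.48 and 4.85, and Slc7a11 of 3.46 and 3.23. The interferon-stimulated list had a median of 1.0 there and 1.67 in IMQ + XYF, the cell cycle list of 1.05 and 1.29, the chemokine list of 1.98 and 2.45, and the collagen list of -2.19 and -0.88. Between IMQ + XYF and IMQ + H2O, no member of the interferon, cell cycle or chemokine list passed the adjusted p, and 3 collagen genes did. Within IMQ + H2O, S100a8 was at 105, 141 and 982 CPM, and replicate 3 was also the highest for Krt6b, Stfa1 and Cxcl1.

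The direct comparison of IMQ + XYF with IMQ + H2O, which leaves the VAS + H2O libraries out, gave 5 DEGs of 18095 genes (0.0276%), all higher in IMQ + XYF, with 986 genes at an unadjusted p under 0.05 by edgeR and 126 DEGs by DESeq2. Rnf13, which encodes a ubiquitin ligase of endosomes and lysosomes, was the only one of the 5 that was also a DEG against VAS + H2O. It was at 43.7, 40.1 and 46.2 CPM in VAS + H2O, at 92.2, 84.3 and 83.9 CPM in IMQ + XYF and at 36.6, 38.6 and 33.3 CPM in IMQ + H2O. The IMQ + XYF libraries were thus above the 6 others, with a log2 fold change of 1.0 ± 0.08 against VAS + H2O (adjusted p = 0.000817), right at the fold cutoff, and of 1.26 against IMQ + H2O. The call against VAS + H2O was lost without VAS + H2O replicate 2 or IMQ + XYF replicate 1. The others were Tnpo1, a nuclear import receptor, and the collagen genes Col9a1, Col11a2 and Col27a1. Col11a2 was at 24.4, 64.3 and 33.4 CPM in VAS + H2O, at 18.9, 19 and 19.7 CPM in IMQ + XYF and at 5.77, 5.8 and 4.84 CPM in IMQ + H2O, and the cartilage markers summed to 222 to 354 CPM in IMQ + XYF and to 68.2 to 131 CPM in IMQ + H2O. Their part in the result was not tested. The count of 5 was 0 without IMQ + H2O replicate 2 or any one of the IMQ + XYF replicates, 1 without IMQ + H2O replicate 1 and 4 without IMQ + H2O replicate 3. Among the 823 genes higher than in VAS + H2O, 40 had an unadjusted p under 0.05 by edgeR between IMQ + XYF and IMQ + H2O. Of the 491 lower genes tested there, 45 did, beside 986 of all 18095 genes. After adjustment 1 of the higher genes and 0 of the lower genes passed, so these counts name no set of genes changed between the 2 groups.

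The DEGs also differed in kind and level. Of 1640 long non-coding RNAs tested, 43 were higher and 107 lower, while of 14316 protein-coding genes 707 were higher and 370 lower. By mean level, the share of DEGs was 7.68% in the lowest of 4 equal bins of genes, 10.8% in the second, 6.85% in the third and 4.42% in the highest, and in the highest bin 157 were higher and 46 lower. Of 780 genes that met the count rule in exactly 3 libraries, 125 did so through the IMQ + XYF libraries and 72 through the VAS + H2O libraries, and such genes had to differ. In all, 128 DEGs met the rule in exactly 3 libraries. Beside the epidermal differentiation complex, type I keratins on chromosome 11 had 2 higher and 5 lower genes of 15, and type II keratins on chromosome 15 had 6 higher and 1 lower of 16.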

How the data were processed

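RNA sequencing counts of epidermal ear sheets were analysed in 9 libraries, 3 per group, with groups taken from the deposited labels. Per the methods and the processing notes of the submitters, TruSeq libraries were aligned to GRCm38 by STAR 2.5, and genes follow Ensembl release 90. The authors deposited raw counts per gene as whole numbers. The counting tool and its strand setting are not given in the sources used here, so overlapping and antisense genes are uncertain. The deposited columns were used as they stand.

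edgeR fits used only the 6 libraries of the groups compared, with edgeR 4.0.16 in R 4.3.3 (TMM, quasi-likelihood test, Benjamini-Hochberg adjustment over all genes tested). Genes needed 10 counts in at least 3 libraries, and a DEG was a gene whose adjusted p did not exceed 0.05 and whose log2 fold change was 1 or more in either direction. CPM use TMM factors over all 9 libraries, and SEs were derived from the test statistic. A floor of 3 counts, which covers counting error only, stood in for 0 in lower bounds of folds. Total counts were 30298275 to 64771160 per library. No pair of libraries of a group was a copy, with a chi-square per gene of 28.4 or more in the 2 groups compared. Exact permutation tests of 3 against 3 libraries cannot go below p = 0.1 and were not used.

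The members, the 22 gene lists and 16 marker lists and the rule for named genes were chosen with earlier results of these data known. The rule took the 10 higher and 10 lower DEGs with the smallest p and no overlap, the 4 members of each list with the smallest p, up to 2 DEGs of the opposite direction, the 3 most abundant markers per cell type, 6 genes of the IL-17 axis and division, the 3 highest and 3 lowest DEGs by fold, and DEGs shared with the comparison against IMQ + H2O. Lists are described by counts and medians and were not tested. Positions are from GENCODE M21, and promoters from a RefSeq table that held 11950 of the 18389 genes. Motif shares of lists are therefore given only where at least 80% of the list was matched. Alternatives were DESeq2 1.42.0, RLE size factors, other count filters, 1 fit of all 9 libraries, the replicate number as a block, glmTreat and each library left out. The fits were tested on simulated data.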

Additional observations from a re-analysis of the deposited data

How the results depend on the processing

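Over 159 named genes and 14 settings, 2103 results kept their side of the threshold, 69 lost the call and 14 gained it. No DEG among them changed sign, but 11 genes that were no DEGs did under at least 1 setting. Without VAS + H2O replicate 2 these included Dcn (-0.81 to 1.23), Acta1 (-1.45 to 2.22), Myh1 (-1.97 to 5.67), Mylpf (-0.70 to 0.66) and Pmp22 (-0.38 to 0.25), given as the log2 fold change with all libraries and without it. The count of 1366 DEGs ranged from 1101 to 1470 with other tools, filters and fits (1470 by DESeq2, 1266 with no filter on counts and 1150 where every library needed 10 counts). The glmTreat test, with its null set at the fold cutoff, called 162 genes, 139 higher and 23 lower. With 1 library left out there were 956 to 1335 DEGs, 576 to 861 higher and 380 to 474 lower, and 3222 to 4574 genes past the adjusted p alone, against 5098. Lists that moved by over 1.5 times beyond those already given included the chemokine list without a low-count filter (14 higher against 9) and collagen chains with DESeq2 (6 lower against 3), and glmTreat lowered most list counts.

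The numbers of the replicates were shared by the groups. Deviations from the group means correlated at -0.07, 0.11 and 0.11 between libraries of the same number and at -0.25 to 0.20 between libraries of different number. In all, 2 of the 3 IMQ + XYF libraries correlated best with a VAS + H2O library of another number. Each value comes from a single pair of libraries, so these values cannot decide whether libraries of the same number shared a batch. With the replicate number as a block, 1101 genes were DEGs, 719 higher and 382 lower, 3701 passed the adjusted p, and the interferon-stimulated list had 9 higher members, the IL-17 axis 3, the Toll-like receptor list 1, the MHC class II list 0 and the collagen list 0 lower. The 5 DEGs of IMQ + XYF against IMQ + H2O became 126 with DESeq2, 0 with the block and 0 to 4 with 1 library left out, and the cause was not tested. With 3 libraries per group, differences near the fold cutoff cannot be placed on one side of it, and genes under about 3 counts per library were not detectable at this depth.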

Other observations

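Some DEGs of IMQ + XYF against VAS + H2O were nearly all or nothing between libraries, and are given as values only. Such genes met the count rule through the libraries of 1 group alone, so they had to differ between the 2 groups. Hist2h2aa1, a histone gene (chr3:96245497-96246082), was at 5.73, 5.61 and 4.1 CPM in VAS + H2O and had no count in the 6 libraries treated with IMQ, at least 68.6-fold lower in IMQ + XYF. The overlapping Gm20634 was at 3.36, 4.7 and 4.96 CPM in VAS + H2O and 0 in the same 6 libraries, at least 57.8-fold lower. Hist2h2aa2, a near-identical copy of Hist2h2aa1, had no count in any library, and reads of such copies may be split or lost in counting. The lincRNA E130102H24Rik was at 2.73, 3.24 and 2.26 CPM in VAS + H2O and had no count in IMQ + XYF (at least 36.6-fold lower), but had 1.04 CPM in IMQ + H2O replicate 3. AC147560.1, low in IMQ + XYF, was at 12.7 CPM in that same IMQ + H2O replicate and at 0.0345 and 0.026 CPM in the other 2.

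Pnp2, a purine nucleoside phosphorylase gene chosen after its values were seen, showed another such pattern, with 7.92, 7.21 and 6.52 CPM in the IMQ + XYF libraries against 0, 0 and 0.115 CPM in VAS + H2O and 0.276, 0 and 0 CPM in IMQ + H2O. Its close copy Pnp had 38.7, 50.7 and 61.1 CPM in VAS + H2O and 57.2, 60.3 and 49.4 CPM in IMQ + XYF (log2 fold change 0.15 ± 0.17, adjusted p = 0.548). Tnpo1 was at 152, 147 and 143 CPM in IMQ + XYF and at 68.1, 74.5 and 75.7 CPM in IMQ + H2O, while VAS + H2O replicate 2 was at 125 CPM beside 68.3 and 58.7 CPM. Gm5416, a stefin-like gene on chromosome 16 near the stefin A cluster, had no count in VAS + H2O and 10.2, 2.56 and 9.94 CPM in IMQ + XYF, at least 94.4-fold higher.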
